A study of Homo sapiens with 6 samples.

Results

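The genes described are the tubulins, stathmins and microtubule-associated proteins of neurites in KNS42 cells, an established line of pediatric glioblastoma (GBM) origin. They were chosen by symbol from the protein-coding rows of the deposited table: every TUBA, TUBB or TUBG gene whose symbol continues with a digit, and 19 genes named individually. This gave 38 of 58174 genes, namely 9 alpha-tubulins, 8 beta-tubulins, 2 gamma-tubulins, 4 stathmins, 8 microtubule-associated proteins (MAPs), 3 members of the doublecortin family, 3 collapsin response mediator proteins (CRMPs) and GAP43. Cells grown in DMEM with 10% FBS received siRNAs directed at MSI1 (siMSI1, 3 libraries) or a control siRNA (siC, 3 libraries), and polyA RNA was sequenced 72 h later. MSI1 encodes Musashi-1, a neural RNA-binding protein. The knockdown is transient and partial, was made in 1 cell line, and the labels do not say whether the libraries of a group came from separate cultures, so p-values measure the spread between these libraries, which may be technical.

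Microtubules are hollow polymers of alpha/beta-tubulin dimers, and gamma-tubulin seeds them. Stathmins bind free dimers and promote disassembly, whereas MAPs and doublecortins bind the polymer, stabilize it and connect it to other structures, and CRMPs bind dimers and act in growing neurites. Most vertebrate cells express several tubulin isotypes, which differ mainly in their acidic C-terminal tails, and neurons add their own isotypes and MAPs when they extend axons and dendrites. The study looked at neurite outgrowth and branching after MSI1 knockdown, and the comparison asks how the mRNAs of the microtubule machinery differed.

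Several of the tubulin isotypes measured in KNS42 cells are shown by the last 48 bases of their coding sequences, 5′ to 3′. The C-terminal tail tells many isotypes apart, but not all of those shown. The ends of TUBB2A and TUBB2B encode the same residues, and those of TUBB4A and TUBB4B nearly the same. The bases are from GENCODE transcripts on GRCh38, and capitals mark the last codon before the stop codon.
TUBA1C: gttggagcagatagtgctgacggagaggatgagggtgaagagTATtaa
TUBA4A: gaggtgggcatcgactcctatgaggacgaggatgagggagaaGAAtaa
TUBB2A: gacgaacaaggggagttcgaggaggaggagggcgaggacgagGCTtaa
TUBB2B: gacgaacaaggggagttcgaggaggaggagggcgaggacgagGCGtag
TUBB4B: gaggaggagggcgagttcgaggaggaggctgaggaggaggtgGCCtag
TUBB4A: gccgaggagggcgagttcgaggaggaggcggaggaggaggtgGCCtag
TUBB6: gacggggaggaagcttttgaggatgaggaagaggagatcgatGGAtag
TUBA1C ends in a tyrosine codon (TAT), the residue that is removed and put back in the detyrosination cycle. TUBA4A ends in a glutamate codon (GAA) and encodes no terminal tyrosine. Over the coding sequence, TUBA1A and TUBA1B were 97.2% identical. TUBB2A and TUBB2B, which lie close together on chromosome 6, were 98.2% identical, whereas TUBB2A and TUBB4B were 87.3% identical.

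This similarity limits how far reads can be assigned. Of the 150-base windows of the main transcript, 48.7% in TUBB2A, 41.6% in TUBB2B, 19.1% in TUBA1B, 8.01% in TUBA1A and 7.22% in TUBA1C also occur in a transcript of another gene. TUBG1 (6.24%), TUBG2 (5.57%) and TUBB (2.66%), which is used in the beta-tubulin sum, also had such windows. The values of all these genes are therefore uncertain to the extent that reads were divided between copies. TUBA4A, TUBB4A, TUBB4B and TUBB6 had no such window, nor did any stathmin, MAP, CRMP, doublecortin gene or GAP43. TUBA1A and TUBA1B also overlap an antisense gene, TUBA1B-AS1, which reached 242 FPKM (log2 fold change -0.14, adjusted p = 0.555), and since the strand setting of the counting is not given, reads of the antisense gene and the tubulins cannot be told apart.

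MSI1 itself was at 64.2 ± 2.53 FPKM (SD, n = 3) in siC and 11.8 ± 0.575 FPKM in siMSI1, which is 18.5% of the siC level (log2 fold change -2.43 ± 0.07 (SE), limma adjusted p = 8.71e-06). FPKM are reads scaled to gene length and library size, so levels can be compared between genes. The reads on genes summed to 14448513 to 18024080 per siC library and 13087025 to 14700593 per siMSI1 library. The neuronal nuclear marker RBFOX3, the oligodendrocyte markers OLIG1, OLIG2, MOG and MAG and the astrocyte markers ALDH1L1 and S100B were listed at 0 in every library, and GFAP was at 1.63 ± 0.335 FPKM in siC and 4.61 ± 0.45 FPKM in siMSI1 (adjusted p = 0.000905). In such bulk samples, fewer cells of a kind and less RNA per cell cannot be told apart.

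Of the 38 members, 27 had a mean of at least 0.5 FPKM over the 6 libraries and were tested with limma on log2(FPKM + 0.1), with p-values adjusted by Benjamini-Hochberg over all 15069 tested genes. At an adjusted p of 0.01, 10 members differed (37.0%), with 7 lower and 3 higher in siMSI1. Among all tested protein-coding genes the same test called 13.1%, 7.09% lower and 6.01% higher. The 7 that fell were MAP6, DPYSL3, DCLK2, TUBB2A, TUBB2B, STMN3 and MAP4, and the 3 that rose were TUBA4A, MAP1A and MAP1B. The median log2 fold change of the 27 was -0.03, beside 1.46e-05 over all tested genes, and their median absolute log2 fold change was 0.32, beside 0.210 over the tested protein-coding genes. In 16 of the 27 (59.3%) the libraries of the groups did not overlap, beside 48.4% of tested protein-coding genes. These include TUBB4A, which reached the mean of 0.5 FPKM only through siMSI1.

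Leaving out 1 library changed the number of members called. Without siC replicate 1 it was 3, and it was 4 without siC replicate 2, 3 without siC replicate 3, 4 without siMSI1 replicate 1, 5 without siMSI1 replicate 2 and 12 without siMSI1 replicate 3, while the calls over all genes went from 1655 to between 528 and 1603. TUBA4A, DPYSL3 and DCLK2 stayed past the threshold each time.

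**Figure D1:**
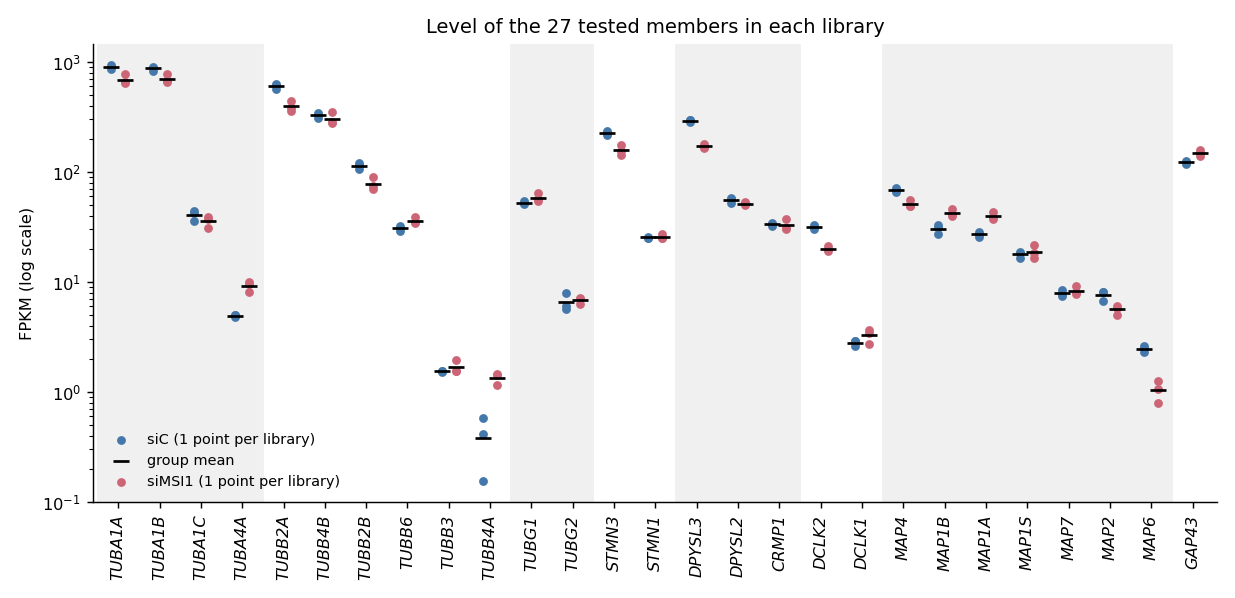
FPKM (log scale) of the 27 tested members, grouped by family in alternating shaded bands, with 1 point per library (blue siC, red siMSI1) and a black line at each group mean. The abundant members are TUBA1A, TUBA1B, TUBB2A, TUBB4B and DPYSL3, and the groups lie apart for DPYSL3, TUBA4A and MAP6.

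The alpha-tubulin mRNA was almost entirely TUBA1A and TUBA1B. TUBA1A (chr12:49184686-49189080, minus strand), the main alpha isotype of developing neurons, was at 896, 860.1 and 942 FPKM in siC replicates 1 to 3 and 652, 646 and 778 FPKM in siMSI1 replicates 1 to 3. TUBA1B, the broadly expressed isotype, was at 878, 832 and 908 FPKM in siC and 666, 661 and 775 FPKM in siMSI1. For both, every siMSI1 library lay below every siC library, and siMSI1 replicate 3 was closest to siC. Their log2 fold changes of -0.38 ± 0.09 (SE) and -0.32 ± 0.08 did not pass the threshold (adjusted p = 0.0185 and 0.0274). Without siMSI1 replicate 3 they passed, with adjusted p = 0.00287 and 0.00539.

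TUBA1C was lower and its groups overlapped, with 44.1, 35.8 and 42.0 FPKM in siC and 30.8, 37.2 and 39.0 FPKM in siMSI1 (log2 fold change -0.19 ± 0.11, adjusted p = 0.268). TUBA4A (chr2:219249710-219277902, minus strand), the alpha isotype without an encoded terminal tyrosine, moved the other way. It was at 4.99, 5.01 and 4.81 FPKM in siC and 9.98, 8.12 and 9.66 FPKM in siMSI1, so that each siMSI1 library was above all siC libraries. The rise was 0.89 ± 0.10 on the log2 scale (95% confidence interval 0.67 to 1.11, adjusted p = 0.000856), or 187% of the siC mean. It rested on 282 to 370 reads per siC library and 434 to 600 reads per siMSI1 library. STK16, which overlaps TUBA4A on the opposite strand, differed by 0.08 on the log2 scale (adjusted p = 0.562).

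Among beta-tubulins, the neighbours TUBB2A and TUBB2B fell. TUBB2A (chr6:3153497-3157544, minus strand), the most abundant beta isotype here, was at 619, 570.0 and 627 FPKM in siC and 384, 357 and 439.7 FPKM in siMSI1. This was 65.0% of the siC mean (log2 fold change -0.63 ± 0.09, 95% confidence interval -0.84 to -0.41, adjusted p = 0.00281). TUBB2B (chr6:3223324-3231730, minus strand), an isotype needed for neuronal migration, was at 116, 106 and 121 FPKM in siC and 74.5, 70.4 and 89.4 FPKM in siMSI1 (log2 fold change -0.55 ± 0.10, adjusted p = 0.00704). In both genes the groups were separate, and again siMSI1 replicate 3 was the highest of its group. The pseudogene TUBB2BP1, which is 97.7% identical to TUBB2A over 821 bases and can share its reads, also fell (log2 fold change -0.72, adjusted p = 0.0033). TUBB2A lost the call without siC replicate 1 (adjusted p = 0.0186), siC replicate 3 (0.0145) and siMSI1 replicate 1 (0.0105). TUBB2B held it only without siMSI1 replicate 3 (0.00166), with adjusted p = 0.0139 to 0.0333 without any other library.

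The other beta isotypes did not pass the threshold. TUBB4B, a broadly expressed isotype, was at 332, 309.8 and 344 FPKM in siC and 283, 279 and 347 FPKM in siMSI1, with overlapping groups (log2 fold change -0.12 ± 0.10, adjusted p = 0.395). TUBB6 was at 31.0, 29.0 and 32.2 FPKM in siC and 34.4, 34.9 and 38.6 FPKM in siMSI1. Its groups did not overlap, but the difference of 0.23 ± 0.07 did not pass (adjusted p = 0.0578). TUBB3, the isotype used as a neuronal marker, was at 1.54 ± 0.019 FPKM in siC and 1.68 ± 0.232 FPKM in siMSI1 (adjusted p = 0.608), and 92.3% of its 150-base windows also occur in another gene. A protein-coding gene that overlaps TUBB3 on the same strand was listed at 0 FPKM. A long noncoding RNA gene that overlaps it on the opposite strand was higher in siMSI1 (log2 fold change 0.85, limma adjusted p = 0.0053). The level and difference of TUBB3 are therefore uncertain. TUBB4A, described although it did not pass, was at 0.154, 0.415 and 0.582 FPKM in siC and 1.43, 1.144 and 1.47 FPKM in siMSI1. It had 8 to 29 reads per siC library and 52 to 73 reads per siMSI1 library. With a siC mean of 0.383 FPKM and a siMSI1 mean of 1.35 FPKM it entered the test only through siMSI1, so its difference is a description. Its log2 fold change was 1.69 ± 0.38 (adjusted p = 0.0162), and 0.77 (adjusted p = 0.00747) when 1 FPKM was added in place of 0.1.

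**Figure D2:**
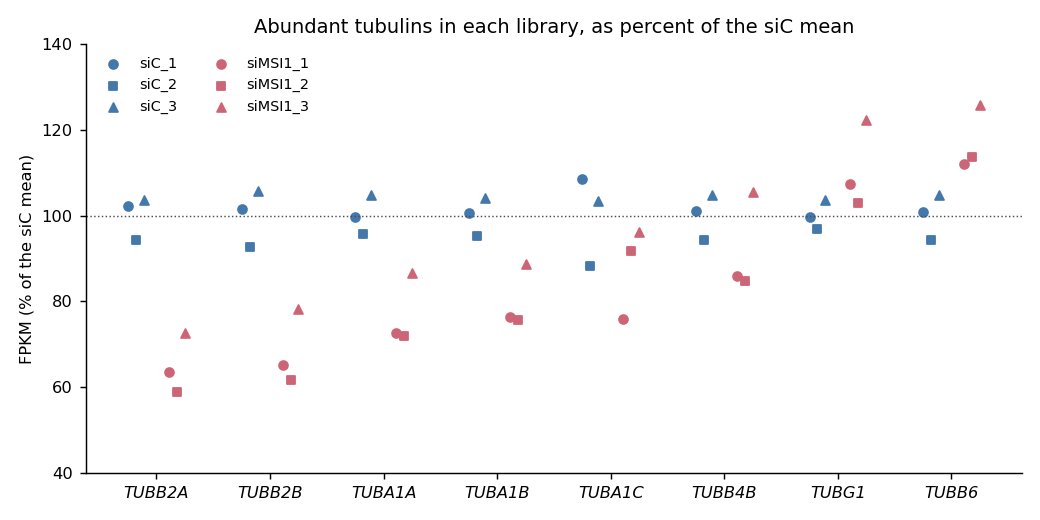
FPKM of the 8 tubulins with a mean of at least 20 FPKM in each library, as percent of the siC mean of that gene (dotted line at 100), ordered by log2 fold change. siMSI1 replicate 3 (red triangles) is the highest siMSI1 library and siC replicate 2 (blue squares) the lowest siC library for all 8 genes. TUBB2A, TUBB2B, TUBA1A, TUBA1B and TUBA1C lie below 100 in every siMSI1 library.

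Libraries also differed within the groups across these 8 tubulins. siMSI1 replicate 3 was the highest of its group for 8 of 8 and siMSI1 replicate 2 the lowest for 6 of 8. In siC, replicate 2 was the lowest for 8 of 8 and replicate 3 the highest for 7 of 8. The part of such shifts in the differences was not tested.

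The summed alpha-tubulin mRNA was 1818 ± 82.2 FPKM in siC and 1438 ± 142 FPKM in siMSI1 (79.1%). The summed beta-tubulin mRNA, here with TUBB added, was 1109.9 ± 57.6 and 839.5 ± 94.2 FPKM (75.6%). In each sum the groups were separate, at the exact permutation p of 0.1 (two-sided) that is the smallest 3 against 3 libraries can give. The alpha-to-beta ratio was 1.64 ± 0.021 in siC and 1.71 ± 0.040 in siMSI1. TUBBP1, a pseudogene that may hold TUBB reads, is not in the beta sum. It was at 142 to 153 FPKM in siC and 146 to 175 FPKM in siMSI1. The ratio depends on whether these values are counted, so its difference is uncertain. Together the 38 members made up 1.49 ± 0.0305% of all FPKM in siC and 1.15 ± 0.05% in siMSI1.

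Within beta-tubulin, the shares of the isotypes were compared. TUBB2A took 54.8, 54.5 and 54.2% of the beta-tubulin FPKM in siC and 47.8, 46.4 and 46.5% in siMSI1, a difference of -7.63 percentage points. TUBB4B took 29.4, 29.6 and 29.8% in siC and 35.1, 36.3 and 36.7% in siMSI1, a difference of 6.42 points. TUBB6 went from 2.77 ± 0.022% to 4.30 ± 0.234% and TUBB2B from 10.3 ± 0.155% to 9.29 ± 0.144%. The libraries of the groups were separate for each of these 4, at the smallest exact permutation p of 0.1. Since the shares sum to 100%, the fall of TUBB2A alone raises the shares of the others. In alpha-tubulin, TUBA1A went from 49.5 ± 0.2997% to 48.1 ± 0.415% and TUBA4A from 0.272 ± 0.018% to 0.646 ± 0.076% (exact permutation p = 0.1 for each). TUBB, whose symbol has no digit and which is therefore no member, was at 29.1 ± 0.669 FPKM in siC and 26.1 ± 1.80 FPKM in siMSI1. Its pseudogene TUBBP1, 97.1% identical to it over 1646 bases, held 142 to 153 FPKM in siC and 146 to 175 FPKM in siMSI1. The beta-tubulin sum may therefore leave out part of the TUBB reads, which also bears on the alpha-to-beta ratio and the beta shares.

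**Figure D3:**
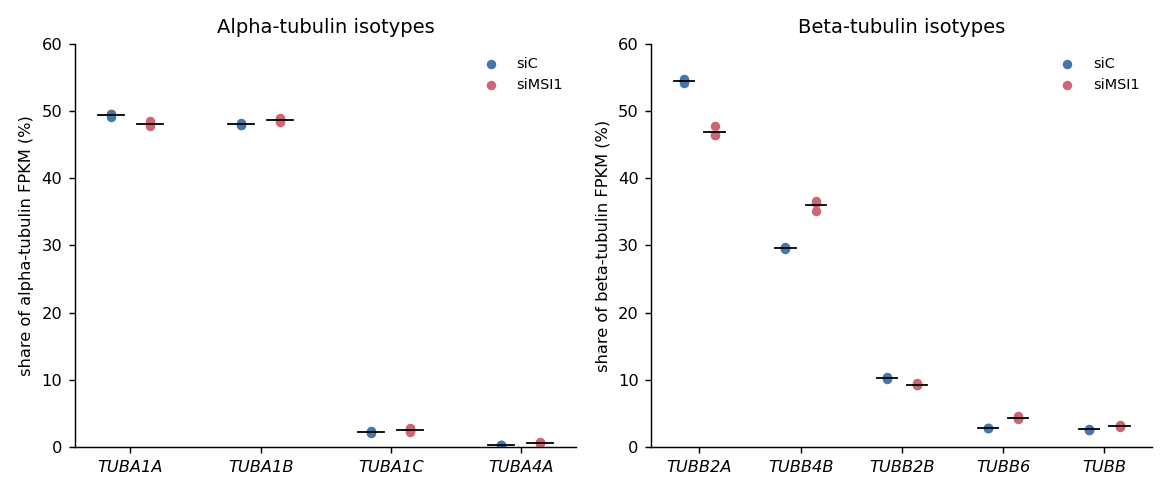
Share (%) of each isotype in the summed FPKM of alpha-tubulin (left) and beta-tubulin (right), 1 point per library (blue siC, red siMSI1) with a line at the group mean, starting at 0. TUBB2A lies near 54.5% in siC and 46.9% in siMSI1, and TUBB4B near 29.6% and 36.0%.

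The gamma-tubulins, which seed microtubules at centrosomes, did not pass the threshold. TUBG1 was at 52.1, 50.6 and 54.1 FPKM in siC and 56.2, 53.9 and 64.0 FPKM in siMSI1 (log2 fold change 0.15, 95% confidence interval -0.04 to 0.33, adjusted p = 0.217). TUBG2 was at 6.57 ± 1.21 and 6.78 ± 0.437 FPKM (adjusted p = 0.788).

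The 300 bases around the start sites of TUBB2A and TUBB2B, which fell, and TUBA4A, which rose, are shown for the tubulins that passed the threshold. They are RefSeq promoters on GRCh38.p14 from 250 bases before to 50 bases after the start, 5′ to 3′ on the strand of the gene. Capitals mark the CCAAT box (CCAAT, or ATTGG for the other strand), the GC box (GGGCGG, or CCGCCC for the other strand) and, on the strand of the gene only, TATAAA.
TUBB2A (chr6:3157495-3157794, minus strand): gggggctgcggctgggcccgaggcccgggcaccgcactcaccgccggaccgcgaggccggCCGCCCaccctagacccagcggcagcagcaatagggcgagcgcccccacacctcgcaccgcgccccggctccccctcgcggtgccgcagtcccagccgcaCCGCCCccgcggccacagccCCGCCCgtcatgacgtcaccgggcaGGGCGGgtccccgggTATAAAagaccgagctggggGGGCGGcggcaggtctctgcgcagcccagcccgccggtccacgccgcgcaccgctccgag
TUBB2B (chr6:3227604-3227903, minus strand): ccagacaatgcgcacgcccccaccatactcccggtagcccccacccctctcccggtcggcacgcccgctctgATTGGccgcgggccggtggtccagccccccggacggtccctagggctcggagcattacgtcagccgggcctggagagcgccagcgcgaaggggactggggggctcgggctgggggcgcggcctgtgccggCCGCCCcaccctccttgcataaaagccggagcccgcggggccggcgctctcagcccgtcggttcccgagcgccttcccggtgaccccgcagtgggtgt
TUBA4A (chr2:219253869-219254168, minus strand): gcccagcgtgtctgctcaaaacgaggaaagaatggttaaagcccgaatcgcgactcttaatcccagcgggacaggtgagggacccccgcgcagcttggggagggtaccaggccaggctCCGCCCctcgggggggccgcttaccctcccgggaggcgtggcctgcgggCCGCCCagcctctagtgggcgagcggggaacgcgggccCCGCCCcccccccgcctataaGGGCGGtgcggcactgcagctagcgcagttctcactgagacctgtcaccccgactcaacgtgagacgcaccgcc
TUBB2A held 5 GC boxes, 1 TATAAA and no CCAAT, TUBB2B 1 GC box and 1 CCAAT, and TUBA4A 4 GC boxes. Over 35116 promoters, 34.6% held CCAAT, 45.0% GGGCGG and 7.33% TATAAA. Of the 25 tested members with a promoter in the table, 12 held CCAAT, 15 GGGCGG and 2 TATAAA. Such matches describe letters and not bound sites. They cover 1 start site per gene, and the annotated spans of TUBA4A and TUBB2B reach further upstream than the bases shown.

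Of the stathmins, STMN3 fell and STMN1 did not change beyond its error. STMN3, a neural stathmin, was at 227, 215 and 235 FPKM in siC and 144, 155 and 175 FPKM in siMSI1 (69.8%, log2 fold change -0.52 ± 0.09, adjusted p = 0.00462). Every siMSI1 library lay below every siC library. STMN1, the stathmin of dividing cells, was at 25.3, 25.2 and 25.8 FPKM in siC and 24.8, 27.5 and 24.9 FPKM in siMSI1, with a 95% confidence interval of the log2 fold change from -0.14 to 0.17. STMN3 kept the call without siMSI1 replicate 3, and lost it without any other library (adjusted p up to 0.0263). It also did not pass with no filter (0.0143) or with plain variance moderation (0.0178).

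Of the CRMPs, DPYSL3 (CRMP4) fell. It was at 298, 284 and 294 FPKM in siC and 165, 169 and 179 FPKM in siMSI1, or 58.5% of the siC mean. The log2 fold change was -0.77 ± 0.06 (95% confidence interval -0.92 to -0.63, adjusted p = 0.000366), and the gene had 30273 to 36839 reads per siC library and 15880 to 18366 reads per siMSI1 library. DPYSL2 (CRMP2), which carries tubulin dimers in axons, was at 57.2, 58.2 and 52.7 FPKM in siC and 53.2, 51.7 and 50.0 FPKM in siMSI1 (adjusted p = 0.234). CRMP1 was at 34.3, 31.9 and 33.9 FPKM in siC and 31.1, 30.4 and 37.2 FPKM in siMSI1 (adjusted p = 0.864). The groups of both overlapped, and the ratio of DPYSL3 to DPYSL2 was 5.23 ± 0.344 in siC and 3.32 ± 0.238 in siMSI1.

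DCLK2, a kinase with doublecortin domains that binds microtubules, fell from 33.1, 30.3 and 31.2 FPKM in siC to 19.3, 21.0 and 20.1 FPKM in siMSI1 (63.7%, log2 fold change -0.65 ± 0.07, adjusted p = 0.000727). The libraries within each group differed little. DCLK1, its relative, was at 2.81 ± 0.167 FPKM in siC and 3.27 ± 0.51 FPKM in siMSI1 (adjusted p = 0.31). DCX, the doublecortin of migrating neurons, had at most 2 reads in any library.

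The structural MAPs split. MAP1A, a MAP of mature neurons, rose from 28.4, 25.8 and 27.0 FPKM to 38.6, 37.0 and 43.4 FPKM (147%, log2 fold change 0.55 ± 0.08, adjusted p = 0.00272). MAP1B, its relative of growing axons, rose from 31.3, 32.9 and 27.5 FPKM to 45.9, 41.5 and 39.8 FPKM (139%, log2 fold change 0.47 ± 0.09, adjusted p = 0.00815). In both the siMSI1 libraries all lay above the siC libraries. MAP1B did not pass with quantile normalization (adjusted p = 0.0143), with no filter (0.0260) or with plain variance moderation (0.0270). MAP1A also did not pass with no filter (0.0102) or with plain variance moderation (0.0128).

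MAP4, the broadly expressed MAP of non-neuronal cells, fell from 69.1, 66.0 and 71.5 FPKM to 49.0, 48.7 and 56.1 FPKM (74.4%, log2 fold change -0.43 ± 0.08, adjusted p = 0.0064). MAP4 did not pass with no filter (0.0190), with plain variance moderation (0.0223) or with median centring (0.0124). MAP6, which makes microtubules stable in the cold, fell from 2.64, 2.49 and 2.28 FPKM to 0.791, 1.07 and 1.27 FPKM (42.2%, log2 fold change -1.19 ± 0.18, adjusted p = 0.00348). It had 75 to 117 reads per siMSI1 library, and when 1 FPKM was added in place of 0.1 its log2 fold change was -0.77, as for DPYSL3. The ratio of MAP1A and MAP1B to MAP4 was 0.838 ± 0.0673 in siC and 1.61 ± 0.12 in siMSI1, with separate groups (exact permutation p = 0.1). The sum over all 8 MAPs was 163 ± 3.02 FPKM in siC and 167 ± 7.63 FPKM in siMSI1, with overlapping groups.

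MAP2, the dendritic MAP, was at 7.62 ± 0.772 FPKM in siC and 5.63 ± 0.546 FPKM in siMSI1, with separate groups, and did not pass (log2 fold change -0.43 ± 0.11, adjusted p = 0.0249). MAP1S and MAP7 had adjusted p of 0.654 and 0.55. Without siMSI1 replicate 3, MAP1A, MAP1B, MAP4 and MAP6 all passed. MAP1A also passed without siMSI1 replicate 2 and MAP6 without siMSI1 replicate 1, and each of the 4 lost its call without each of its remaining libraries. The highest adjusted p was 0.0123 for MAP1A, 0.0312 for MAP1B, 0.0337 for MAP4 and 0.0205 for MAP6. GAP43, the growth-cone protein, was at 119, 123 and 126 FPKM in siC and 139.6, 158 and 147 FPKM in siMSI1. Its groups did not overlap, and the log2 fold change of 0.27 ± 0.07 did not pass (adjusted p = 0.0256).

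**Figure D4:**
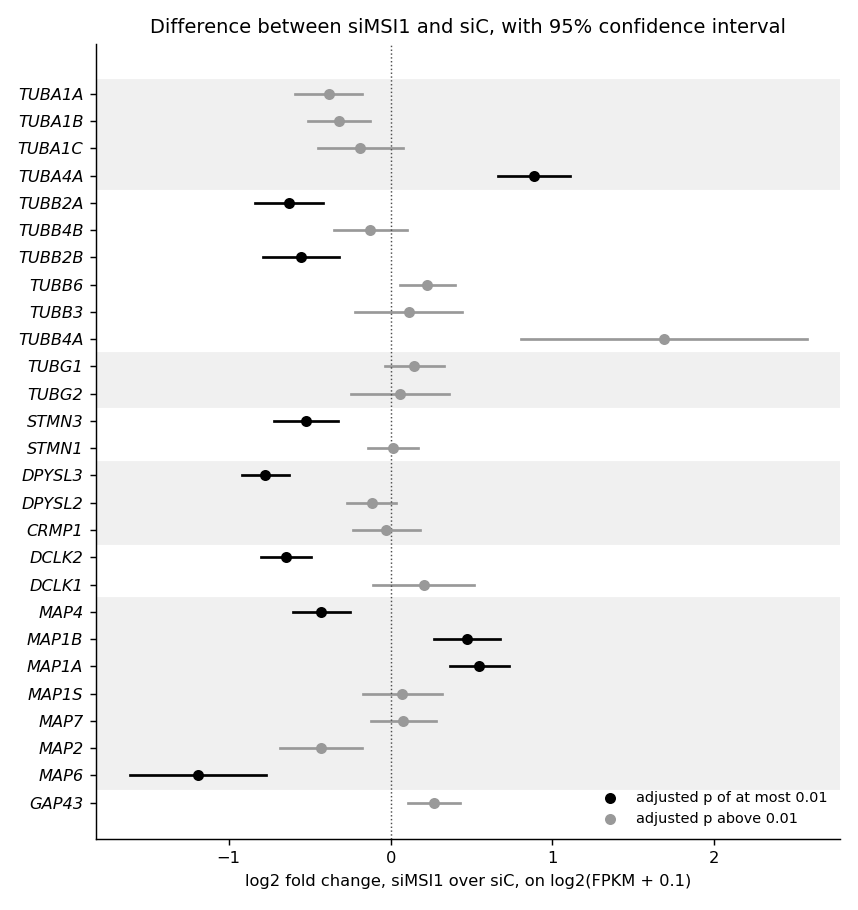
Log2 fold change (siMSI1 over siC, on log2(FPKM + 0.1)) of the 27 tested members with 95% confidence intervals, black where the adjusted p was at most 0.01 and grey above it, with families in alternating shaded bands. TUBA4A, MAP1A and MAP1B lie right of 0, and MAP6, DPYSL3, DCLK2, TUBB2A, TUBB2B, STMN3 and MAP4 lie left of it.

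The 11 members below 0.5 FPKM were not tested: MAPT, STMN2, STMN4, DCX, TUBB1, TUBB8, TUBA8, TUBA3C, TUBA3D, TUBA3E and TUBA4B. MAPT, which encodes tau, was at 0.251, 0.174 and 0.242 FPKM in siC and 0.0864, 0.107 and 0.098 FPKM in siMSI1, from 47 to 56 and 19 to 21 reads, with separate groups. STMN4 had no read in siC and 2 to 3 reads in siMSI1, at or under the floor of 3 reads. TUBA3C had no read in any library. The highest value among these 11 was 0.281 FPKM, for STMN2.

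Other genes of the microtubule system were described from lists, whose counts stand beside the 13.1% of tested protein-coding genes called. Of the 12 genes of the gamma-tubulin complex, all tested, none passed, and none of the tested 15 of 21 tubulin modifying enzymes, 10 of 12 severing and depolymerising proteins, 17 of 18 kinases of MAPs or 3 of 4 tubulins outside the rule passed. With limma these 5 lists held 3, 3, 4, 5 and 0 genes at an unadjusted p of 0.05, beside 42.3% of tested protein-coding genes. With voom on recovered reads 1, 2, 1, 3 and 0 genes passed the threshold, beside 23.2% of tested protein-coding genes. Of 8 tubulin folding cofactors, TBCD, which assembles the dimer, fell from 24.3 ± 1.25 to 15.3 ± 1.28 FPKM (log2 fold change -0.67, adjusted p = 0.00135) and TBCE rose from 14.2 ± 1.08 to 18.9 ± 0.201 FPKM (0.41, adjusted p = 0.00645). CKAP5, a plus-end polymerase, was the only call among 15 tested end-binding and minus-end proteins (log2 fold change -0.32, adjusted p = 0.00742).

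Of 18 tested genes in a list of other structural MAPs, which also held CRMP family members and other proteins that are not MAPs, 4 passed. The CRMP family members DPYSL4 (16.3 ± 1.32 to 6.19 ± 0.353 FPKM, log2 fold change -1.38, adjusted p = 0.000206) and DPYSL5 (28.4 ± 1.47 to 19.2 ± 2.35 FPKM, -0.57, adjusted p = 0.00514) fell. EML1 and JPT1 rose (0.61 and 0.41, adjusted p = 0.00121 and 0.00415). Of 29 tested transport motors, the kinesin subunit KIF3B (log2 fold change -0.71, adjusted p = 0.000758) and the dynein light chain DYNLL2 (-0.51, adjusted p = 0.00181) fell. Without siC replicate 1 the motors held 1 call. The call of CKAP5 held only without siMSI1 replicate 3. The list with the other structural MAPs held 2 calls without any library but siMSI1 replicate 3. The cofactors held 2 calls without siC replicate 2 and 1 without any other library.

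Cell type and growth markers moved in the same libraries. Of 20 proliferation markers 12 fell and none rose, with E2F1 (log2 fold change -0.89), MCM5 (-0.73), MCM4 (-0.65) and PCNA (-0.62) falling most, and their summed level was 1073 to 1087 FPKM in siC and 836 to 874 FPKM in siMSI1. The count was 3 to 6 when any library but siMSI1 replicate 3 was left out. Of 5 tested astrocyte markers, GFAP (1.46) and AQP4 (0.80) rose and GJA1 (-0.61) fell, and the sum over the 8 was 298 to 345 FPKM in siC and 227 to 269 FPKM in siMSI1. The median log2 fold change of the 5 was 0.80, so the median and the sum, which weighs abundant genes most, went opposite ways. Of 4 tested neuronal markers, UCHL1 rose (0.42) and SYP fell (-0.53), with a sum over the 14 of 161 to 169 and 201 to 223 FPKM, most of it UCHL1. The neuronal markers held 0 calls when 1 siC library was left out and 1 without siMSI1 replicate 1 or 2, and the astrocyte markers held 2 without siC replicate 1, siC replicate 2 or siMSI1 replicate 1. Of 9 oligodendrocyte lineage markers only PDGFRA was tested (20.9 ± 0.468 FPKM in siC, 24.1 ± 1.35 FPKM in siMSI1, adjusted p = 0.0621). Their part in the tubulin and MAP differences was not tested.

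MSI1 is known to bind UAG in RNA, so the letters were counted in the 3′UTRs of the 27 tested members. The tested protein-coding genes with a 3′UTR of at least 30 bases had a median of 1.12 UAG per 100 bases (quartiles 0.738 and 1.43, n = 11260). Among the 7 that fell the density was 0.369 (STMN3) to 1.52 (TUBB2A), and STMN3, DCLK2 and MAP6 lay below the lower quartile. The value of TUBB2A rests on 3 UAG in 197 bases and that of MAP6 on 1 in 141 bases. The median 3′UTR length of the tested protein-coding genes was 1356 bases. TUBA4A, MAP1A and MAP1B, which rose, had 0.935, 1.01 and 1.34. The count describes letters in 1 transcript per gene and says nothing of binding.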

How the data were processed

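PolyA RNA of KNS42 cells was sequenced from 3 siC and 3 siMSI1 libraries. Per the labels and methods, the authors clipped reads with cutadapt (1.14), aligned them to GRCh38 with HISAT2 (2.1.0), counted them with featureCounts (1.5.3) on an Ensembl annotation and deposited FPKM per gene. Library preparation was strand-specific, but the strand setting of the counting is not given in the sources used here. The authors also deposited log2 fold changes of siMSI1 over siC with p-values and FDR from their own edgeR comparison, which were not used.

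FPKM times gene length gave whole reads (tolerance 0.1) for 100% of values. limma 3.58.1 (R 4.3.3; lmFit, eBayes with trend and robust) compared the groups on log2(FPKM + 0.1) for the 15069 genes with a mean of at least 0.5 FPKM over all 6 libraries, adjusted by Benjamini-Hochberg, at 0.01. The model was tested on simulated data. Shares were compared by exact permutation tests. Gene models came from GENCODE 44, and some coding ends are not reported here. Confidence intervals are limma's and rest on the spread between libraries, and the floor of 3 reads covers counting error only.

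The members and lists were chosen with earlier results of these data known. Every member was named, with per-library values for those past the threshold or at 20 FPKM and above, and, per list, at most 4 genes past the threshold and the defining markers at 0. PDGFRA was named outside this rule. Alternatives were 2 added values, 2 filters, 2 normalizations, plain moderation, an adjusted p of 0.05, a replicate block, voom on reads, and leaving out each library.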

Additional observations from a re-analysis of the deposited data

How the results depend on the processing

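Members past the threshold numbered 10 (3 higher, 7 lower) and went to 4 (1 and 3) with no filter and with plain moderation, to 8 with median centring (without MAP4 and TUBB2B, each with adjusted p = 0.0124), to 11 (4 higher) with 1 FPKM added, which added TUBB4A, to 14 with voom on reads, which added TUBA1A, TUBA1B, MAP2 and TUBB4A, and to 15 (5 and 10) at an adjusted p of 0.05. With quantile normalization the count was 10, with TUBA1A in place of MAP1B. TUBB4A entered the test only through siMSI1, so its calls under any setting are a description. With no filter the 4 were DCLK2, DPYSL3, TUBA4A and TUBB2A, and with plain moderation DCLK2, DPYSL3, MAP6 and TUBA4A. Leaving out a library gave 3 to 12, with 1 to 3 higher and 2 to 9 lower. For the lists, 26 genes passed, beside 13 with no filter, 13 with plain moderation, 43 at 0.05 and 9 to 24 without a library. All genes past the threshold numbered 1655, beside 792 with no filter, 847 with plain moderation, 2855 with voom, and 528 to 1603 without a library. The median log2 fold change of -0.03 moved to -0.12 with no filter, and without a library was -0.09 to 0.01.

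For 4 members that did not pass, the sign of the log2 fold change turned when a library was left out, over ranges of -0.117 to 0.0285 for CRMP1, -0.0273 to 0.161 for MAP1S, -0.0333 to 0.0402 for STMN1 and -0.0387 to 0.1998 for TUBG2. With quantile normalization STMN1 turned to -0.0046. As shares of reads rather than FPKM, the differences were 0.431 percentage points for TUBA4A, 0.648 for TUBB, -1.43 for TUBB2B, 0.120 for TUBB3, 0.209 for TUBB4A, 5.52 for TUBB4B and 2.87 for TUBB6. Reads are not divided by gene length. The cause of the other changes was not tested.

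Over all tested genes, libraries with the same replicate number hardly deviated together (correlations of -0.0661, 0.0783 and 0.083). The numbers were not taken as pairs, and the labels do not say whether they mark any. In the 8 abundant tubulins, however, replicate 2 was the lowest for 8 of 8 in siC and 6 of 8 in siMSI1. Replicate 3 was the highest for 7 of 8 in siC and 8 of 8 in siMSI1. With the replicate block 12 members passed (3 higher, 9 lower), beside 31 list genes and 2250 genes in all. With voom on reads and the replicate block 16 members passed (6 higher, 10 lower), beside 64 list genes and 5070 genes in all.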
